A study of Homo sapiens with 36 samples.

Results

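Mantle cell lymphoma (MCL) lines were compared with germinal centre B-cell-like (GCB) lines of diffuse large B-cell lymphoma across every gene of a targeted RNA-Seq panel. The comparison took 25 of the 36 human lymphoma cell lines of the series, 9 MCL and 16 GCB. The MCL lines were GRANTA519, JEKO1, JVM2, MAVER1, MINO, REC1, SP49, SP53 and UPN1. The GCB lines were DB, DOHH2, FARAGE, KARPAS422, OCILY1, OCILY7, OCILY8, OCILY18, OCILY19, RCK8, SUDHL4, SUDHL6, SUDHL10, SUDHL16, TOLEDO and WSU_DLCL2. The labels give only the name of each line and no treatment or genotype, so the class of each line was taken from what is generally known of it and not from any measured value.

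Each line is an established culture grown from 1 patient's B cells and was measured in 1 library. Lines therefore served as the replicates, and p-values measure the spread between lines. GRANTA519, JVM2 and FARAGE are known to carry Epstein-Barr virus, and JVM2, RCK8 and FARAGE are placed in other classes by some sources. Both facts were handled by leaving those lines out in turn.

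Mantle cell lymphoma arises from B cells of the mantle zone that surrounds the follicle, and its usual founding event joins the cyclin D1 gene CCND1 to the immunoglobulin heavy chain locus. Cyclin D1 binds CDK4 or CDK6 and drives cells out of G1. GCB lymphoma keeps much of the programme of the germinal centre, where B cells mutate their receptors under the transcriptional repressor BCL6 and carry CD10, the product of MME, on their surface.

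Library totals ran from 9240086 to 12472040 counts in MCL lines (median 10394665) and from 6960169 to 13451527 counts in GCB lines (median 10569301). Neither the log2 total (MCL minus GCB 0.03, exact permutation p = 0.769, two-sided) nor the log2 TMM scaling factor (difference -0.05, exact permutation p = 0.786) differed between the classes beyond the spread between lines. After a filter of at least 10 CPM (counts scaled to the size of the library) in at least 4 of the 25 lines, 2325 of 2549 genes were tested. CPM values are not divided by length, so levels below are compared between lines within a gene, never between genes.

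The MCL lines had higher levels of 31 genes and lower levels of 14 genes than the GCB lines (edgeR quasi-likelihood test, Benjamini-Hochberg adjusted p under 0.05), which is 1.33% and 0.602% of the genes tested and 1.94% together. The genes that rose included CCND1, the circadian repressor CRY1, the CDK inhibitor CDKN1C, the amyloid precursor APP and the inhibitory receptors PDCD1 and LAG3. The genes that fell included the other G1 partners CDK6 and CCND3, the focal adhesion kinase PTK2, and the germinal centre genes MME, MAPK10 and BCL6. At an unadjusted p under 0.05 the count was 357 genes, or 15.4%. No gene had MCL and GCB lines that did not overlap at all, a share of 0%. The fold change of the median gene was -0.19 on the log2 scale, with 895 genes above 0 and 1428 below. That median depended on the method. It was -0.05 with the log2 TMM factor as a covariate, -0.03 in limma-voom and -0.05 in limma on the authors' log2 values. The list medians below are from the edgeR fit and are to be read against its -0.19 only, also where that value is not repeated.

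**Figure D1:**
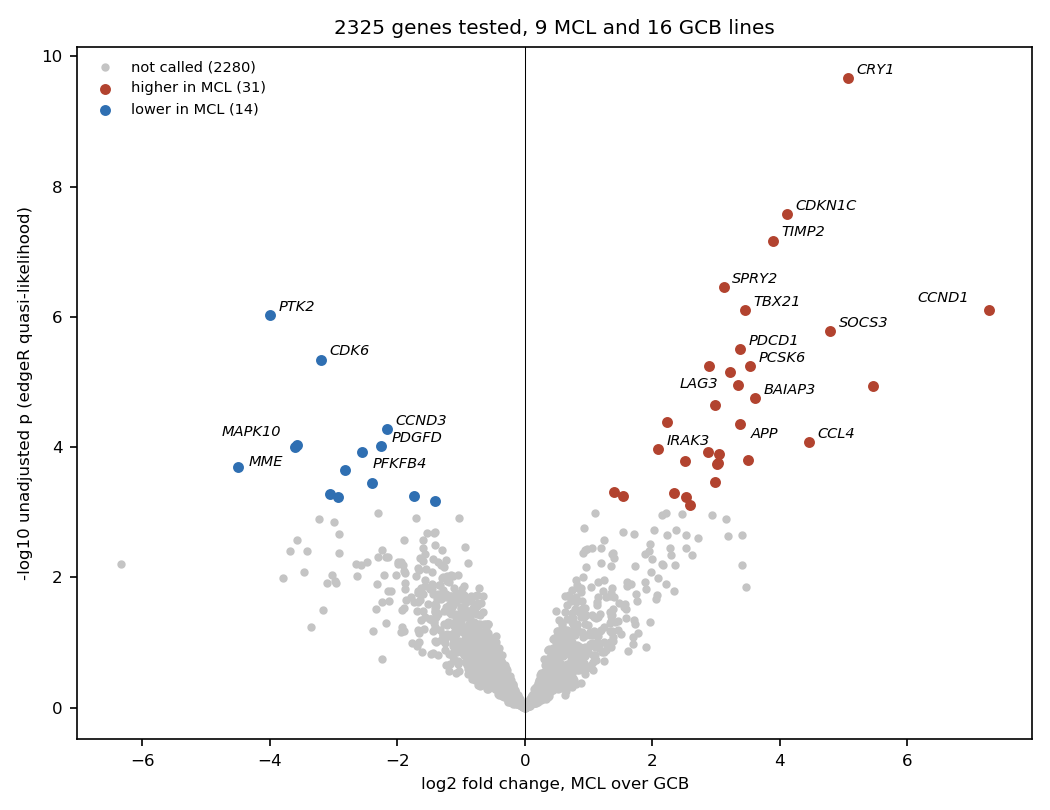
Log2 fold change, MCL over GCB (horizontal axis), against -log10 of the unadjusted edgeR p (vertical axis) for the 2325 genes tested in 9 MCL and 16 GCB lines. The 31 genes higher in MCL lines stand to the right in red and the 14 lower ones to the left in blue, with CRY1 at the smallest p and CCND1 at the largest fold change.

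The fitted fold change is a ratio of mean levels, so a few lines with very high levels can set it. For this reason the lowest, median and highest line are given before each fold change, with the standard error (SE) of the fit after it. Of the 45 called genes, 27 kept their call in each of 25 fits that left out 1 line, 17 of them higher and 10 lower. The other 18 lost the call or fell under the filter in at least 1 of these fits.

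The label was first checked on CCND1 (chr11:69641087-69654474, GRCh38, plus strand), the defining gene of the disease. CCND1 stood at 7.63 CPM in the lowest, 94.0 CPM in the median and 21600 CPM in the highest MCL line, against 1.72, 10.6 and 237 CPM in GCB lines. The fold change was 7.28 on the log2 scale (SE 1.15, adjusted p = 0.000308). The level was split among the MCL lines. Levels above every GCB line were found in 4 of them, at 2080 CPM in JVM2, 2820 CPM in GRANTA519, 12900 CPM in MINO and 21600 CPM in MAVER1. REC1 at 94.0, SP49 at 28.1, UPN1 at 12.8, JEKO1 at 9.44 and SP53 at 7.63 CPM lay inside the GCB range, whose top was FARAGE at 237 CPM. High CCND1 counts thus marked 4 of 9 MCL lines in these libraries, and the assignment of the other 5 could not be checked on it. JEKO1 and REC1 are generally known to express cyclin D1. The position of the CCND1 target in the transcript is not given in the sources used here, so a low count may not stand for a low level of every CCND1 transcript, and the fold change refers to the targeted stretch alone. No line was moved or left out on this account, since that would group lines by their outcome. Because the fold change rests on so few lines, it was 6.31 without MAVER1 and 8.16 without FARAGE. Limma, which averages log2 values, gave 4.10 with voom weights (adjusted p = 0.121) and 4.19 on the authors' log2 values (adjusted p = 0.059), so the call did not hold there.

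The second mantle cell marker in the panel, CD5, a receptor that damps B-cell receptor signalling, had 1.97, 12.4 and 203 CPM in the lowest, median and highest MCL line and 0.114, 5.31 and 22.4 CPM in GCB lines. MINO, MAVER1 and JEKO1 were above every GCB line. The fold change of 2.46 (SE 0.68) just missed the threshold (adjusted p = 0.0511). SOX11, a further mantle cell marker, was not analysed here.

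**Figure D2:**
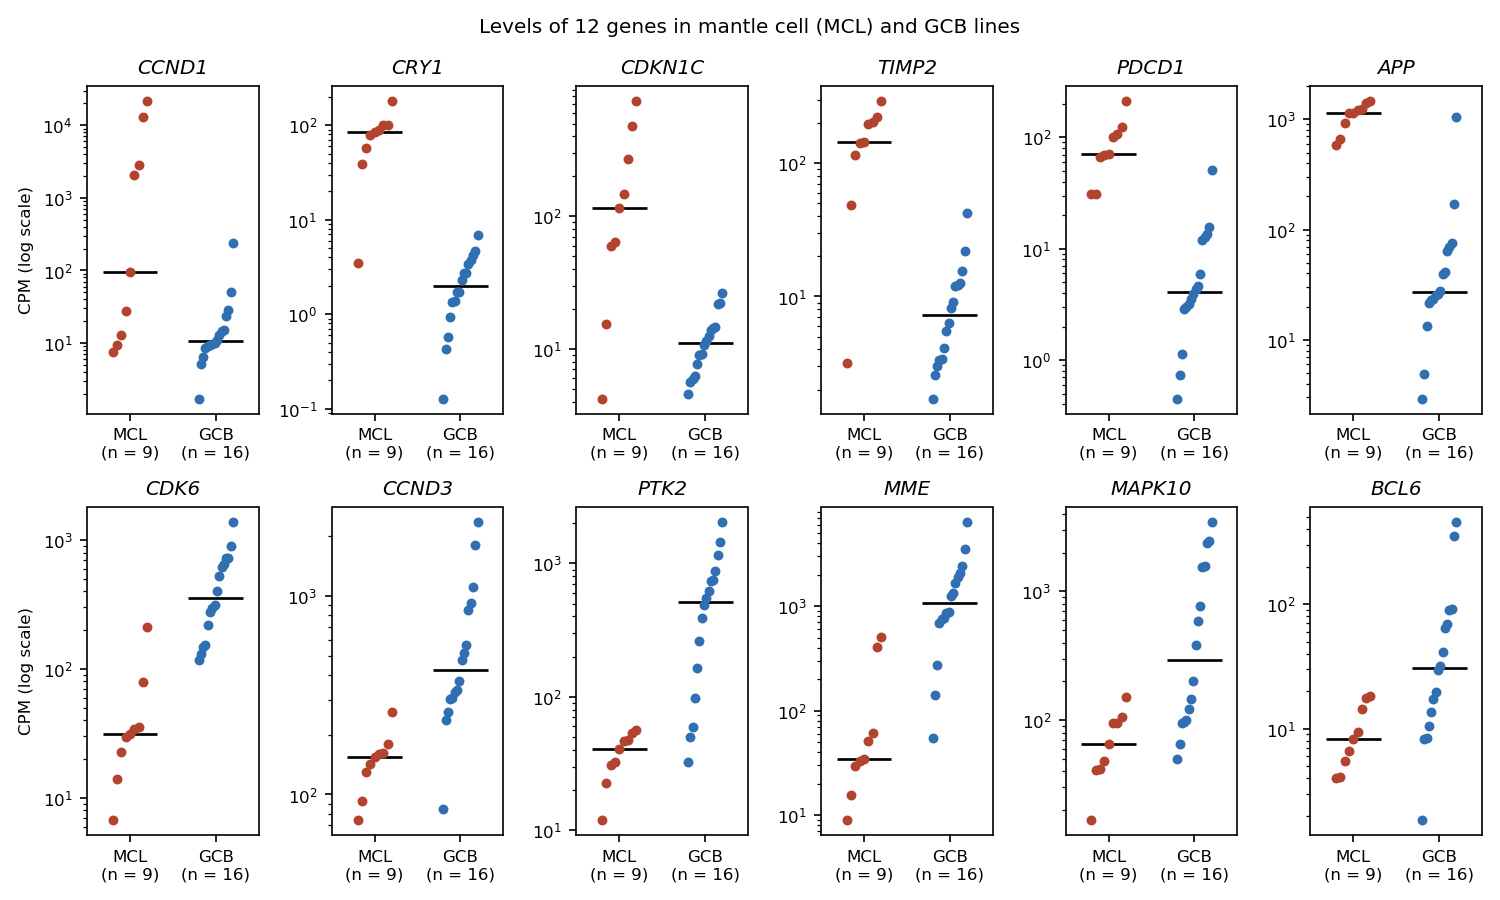
Levels in CPM on a log axis for 12 genes, with 1 point per line, 9 MCL lines in red at the left and 16 GCB lines in blue at the right of each panel, and a bar at each median. CCND1 splits the MCL lines, APP is between 591 and 1470 CPM in all 9 of them, and CDK6 is under 117 CPM, the lowest GCB line, in 8 of 9.

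Genes of the G1 phase changed in both directions. Of 20 tested members of the list of D-type cyclins, G1 kinases and inhibitors, 2 rose (CCND1 and CDKN1C), 2 fell (CDK6 and CCND3) and 16 were not called, with a median change of 0.10 against -0.19 over all genes. This count and those of the lists below stand beside a share of 1.94% called over all genes tested. CDKN1C (chr11:2883213-2885773, minus strand) encodes p57, an inhibitor of G1 cyclin-dependent kinases. Its level was 4.21, 115 and 741 CPM in the lowest, median and highest MCL line, against 4.58, 11.0 and 26.3 CPM in GCB lines. Of the 9 MCL lines, 7 were above every GCB line, while REC1 (15.3 CPM) and JVM2 (4.21 CPM) were not. CDKN1C rose by 4.11 on the log2 scale (SE 0.54, adjusted p = 3.04e-05) and by 3.49 without JEKO1, the highest line.

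CDK6 (chr7:92604921-92836594, minus strand), a catalytic partner of the D-type cyclins, had 6.73 CPM in the lowest, 31.2 CPM in the median and 211 CPM in the highest MCL line. The GCB lines had 117, 358 and 1370 CPM. JVM2 was the only MCL line inside the GCB range, and the other 8 were below all 16 GCB lines. The change was -3.20 (SE 0.57, adjusted p = 0.00105), and -3.91 without JVM2. CCND3 (chr6:41934933-42050357, minus strand), the D-type cyclin of germinal centre B cells, had 74.3, 155 and 261 CPM in MCL lines and 84.1, 424 and 2340 CPM in GCB lines. DOHH2, DB and OCILY18 were the GCB lines inside the MCL range, and SUDHL6 and OCILY19 were the highest. CCND3 fell by 2.16 (SE 0.46, adjusted p = 0.00615).

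The third D-type cyclin, CCND2, was not called. It had 12.4, 33.0 and 3520 CPM in MCL lines, against 6.65, 39.8 and 638 CPM in GCB lines, and its change of 2.62 (adjusted p = 0.107) came with JVM2 alone at 3520 CPM and an MCL median below the GCB median. CDK4, the other D-cyclin kinase, had a median of 805 CPM in MCL lines and 623 CPM in GCB lines (change 0.47, adjusted p = 0.537). CDKN1B, which encodes p27, had medians of 923 and 419 CPM in MCL and GCB lines (change 0.92, adjusted p = 0.107). CDKN2A, the p16 and ARF locus that many lymphoma lines have lost, had medians of 3.14 CPM in MCL and 74.5 CPM in GCB lines. Its lines ran from 0.263 to 281 CPM in MCL and from 0.516 to 408 CPM in GCB lines (change -0.70, adjusted p = 0.722).

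Of the germinal centre genes, MME, MAPK10 and BCL6 were lower in MCL lines. Of 15 tested genes on that list, none rose, 3 fell (MME, MAPK10 and BCL6) and 12 were not called, and 14 of 15 changes were negative, with a median of -1.64 against -0.19 over all genes. MME (chr3:155024124-155183729, plus strand), the gene of the surface peptidase CD10, had 8.94, 34.4 and 507 CPM in the lowest, median and highest MCL line, against 55.2, 1070 and 6330 CPM in GCB lines. JEKO1 with 507 CPM and UPN1 with 408 CPM were the high MCL lines, and RCK8 with 55.2 CPM was the low GCB line. The change was -3.61 (SE 0.80, adjusted p = 0.00971), and -4.20 without JEKO1.

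MAPK10 (chr4:85990007-86594625, minus strand), the stress kinase JNK3, had 16.7 to 150 CPM in MCL lines (median 65.7), against 49.9 to 3430 CPM in GCB lines (median 292). It fell by 3.58 (SE 0.78, adjusted p = 0.00965), though limma-voom gave -2.49 (adjusted p = 0.115). The GCB lines themselves were widely spread, with SUDHL4 at 3430, DB at 2470 and SUDHL16 at 2360 CPM, and 7 GCB lines were below the highest MCL line.

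BCL6 (chr3:187721377-187745727, minus strand), a transcriptional repressor needed to form germinal centres, had 4.01, 8.23 and 18.2 CPM in MCL lines, against 1.85, 30.8 and 452 CPM in GCB lines. All 9 MCL lines were below the GCB median. The GCB lines TOLEDO, DOHH2, FARAGE, OCILY18 and SUDHL6 were inside the MCL range, and OCILY19 was below it. The change of -3.05 (SE 0.78, adjusted p = 0.0312) passed narrowly, and the call was lost on leaving out any of GRANTA519, JEKO1, JVM2, MAVER1, MINO, SP49, OCILY1 or SUDHL16 (adjusted p up to 0.0674). Limma gave -1.85 with voom weights (adjusted p = 0.255) and -1.96 on the authors' log2 values (adjusted p = 0.162). The BCL6 call was also lost under scaling by library size alone (adjusted p = 0.0558) and without GRANTA519, JVM2 and FARAGE (adjusted p = 0.0973).

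Other members of the germinal centre list had lower medians in MCL lines without passing the test. ASB13, which encodes an ankyrin-repeat ubiquitin ligase subunit, had medians of 10.2 CPM in MCL and 39.1 CPM in GCB lines (change -2.99, adjusted p = 0.0587). ITPKB, an inositol trisphosphate kinase, had 203 and 1160 CPM in MCL and GCB lines (change -1.64, adjusted p = 0.115). The DNA glycosylase gene NEIL1 had medians of 18.2 CPM in MCL and 132 CPM in GCB lines (change -2.64, adjusted p = 0.155). The germinal centre serpin SERPINA9 had 17.3 CPM in MCL and 112 CPM in GCB lines (change -2.18, adjusted p = 0.322), and the transcription factor MYBL1 had 30.1 CPM in MCL and 290 CPM in GCB lines (change -2.31, adjusted p = 0.179). The highest MCL line was GRANTA519 for MYBL1, at 510 CPM, and REC1 for SERPINA9, at 596 CPM. Each was above the GCB median of that gene, so the classes overlapped widely.

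The lists for other B-cell stages had no called member. All 7 tested plasma cell genes had positive changes (median 0.82) and 11 of 16 activated B-cell genes did (median 0.49). Of 7 tested naive and mantle zone genes, 3 had positive and 4 had negative changes, with a median of -0.32 against -0.19 over all genes. IRF4, the factor that drives plasma cell differentiation and also marks the activated B-cell type, had 347, 713 and 1460 CPM in the lowest, median and highest MCL line. The GCB lines had 1.04, 129 and 1470 CPM. All 9 MCL lines thus lay between the GCB median and the highest GCB line. The ratio of means gave 1.73 (SE 0.85, adjusted p = 0.325), while limma with voom weights gave 3.92 (adjusted p = 0.0214). FCER2, which encodes the IgE receptor CD23, was among the 3 mantle zone genes with a positive change, against 4 with a negative one. Its medians were 131 CPM in MCL lines and 12.3 CPM in GCB lines (change 3.18, adjusted p = 0.0787). GRANTA519 led with 2670 CPM, and JEKO1, MINO and UPN1 were below the GCB median. CCR7, the receptor that draws lymphocytes to the T-cell zone, had medians of 409 CPM in MCL and 33.8 CPM in GCB lines (change 2.09, adjusted p = 0.159).

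The early B-cell genes in the B-cell lineage list had no call either. DNTT, which adds bases during receptor rearrangement, had a change of -6.34 (adjusted p = 0.122) that came from OCILY19 at 7330 CPM and TOLEDO at 952 CPM, while the medians were 1.84 CPM in MCL and 1.89 CPM in GCB lines. The recombinase gene RAG1 had medians of 42.8 CPM in MCL and 83.5 CPM in GCB lines (change -3.02, adjusted p = 0.155).

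**Figure D3:**
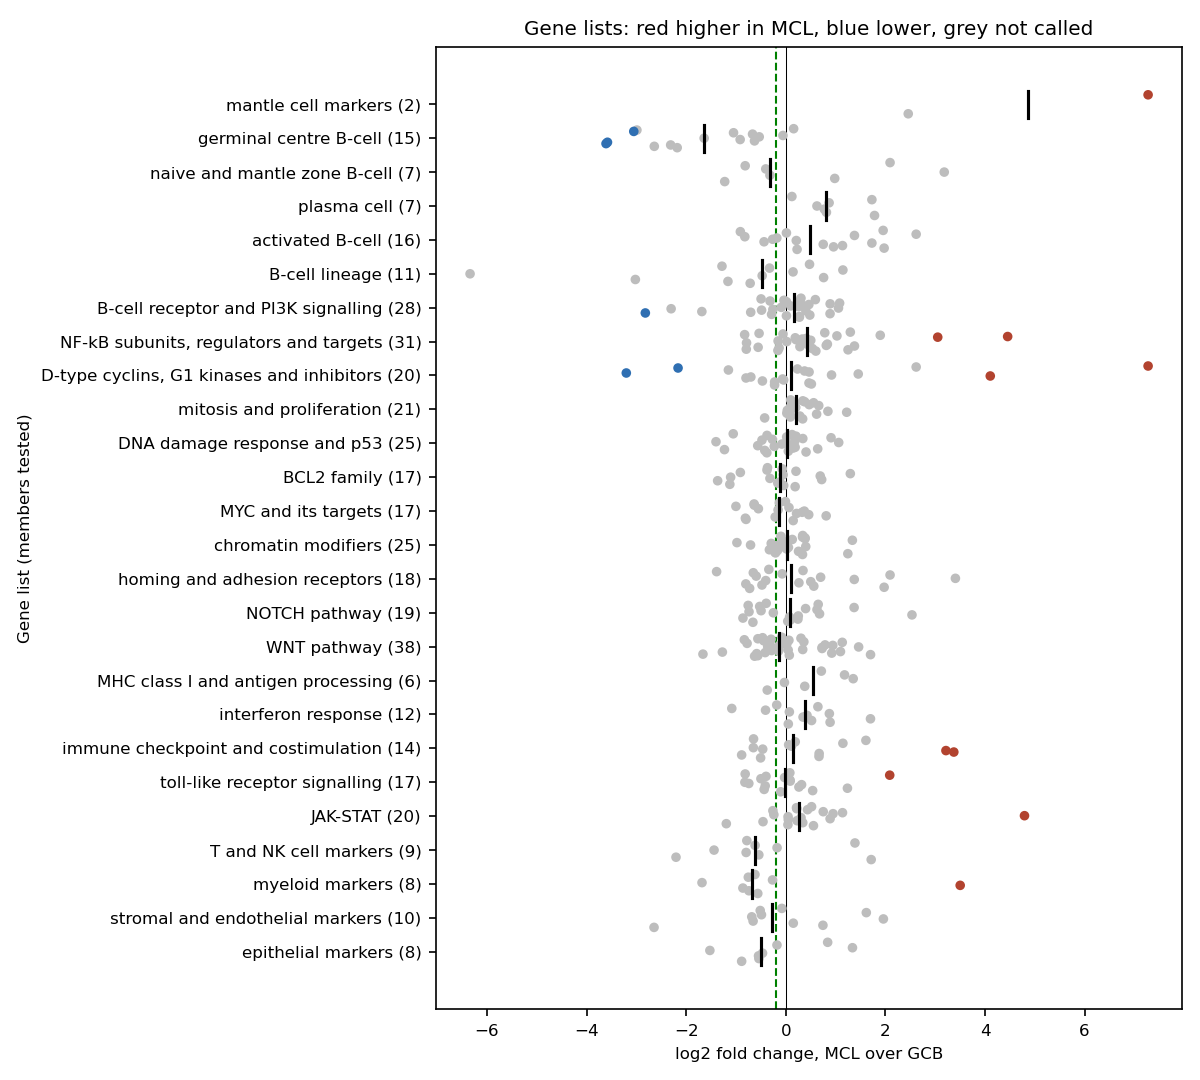
Log2 fold change, MCL over GCB, of each tested member of 26 gene lists (rows, with the number of members tested), in red where higher in MCL lines, in blue where lower and in grey where not called. Black bars are list medians and the dashed line is the median of all genes at -0.19. Germinal centre genes lie to the left (median -1.64), and 17 lists have no called member.

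CRY1 (chr12:106991364-107093829, minus strand), which encodes a repressor of the circadian clock, had the smallest p of all genes tested. JEKO1 had 181 CPM, GRANTA519 101, MAVER1 100, JVM2 85.0, SP53 79.0, UPN1 57.0, MINO 39.1 and REC1 3.52 CPM, with SP49 between MAVER1 and JVM2. The GCB lines ran from 0.128 CPM in SUDHL16 to 6.92 CPM in RCK8, with a median of 2.01 CPM. Thus 8 of 9 MCL lines were above every GCB line, and only REC1 fell inside the GCB range, below RCK8, OCILY7, SUDHL6 and DOHH2. CRY1 rose by 5.07 (SE 0.53, adjusted p = 5.06e-07). The change was between 4.75 and 5.25 in the fits without 1 line.

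APP (chr21:25880550-26171128, minus strand), a transmembrane protein known as the source of amyloid beta, varied least among MCL lines of the 16 higher genes named here (SD 0.46 log2 CPM). It had 591, 1150 and 1470 CPM in the lowest, median and highest MCL line, against 2.93, 27.0 and 1050 CPM in GCB lines. OCILY8, at 1050 CPM, was the one GCB line above the lowest MCL line, and the next, DOHH2, had 169 CPM. APP rose by 3.38 (SE 0.70, adjusted p = 0.00536), and by 4.70 without OCILY8. Limma gave 4.85 with voom weights and 4.88 on the authors' log2 values.

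TIMP2, an inhibitor of matrix metalloproteinases, had 3.15, 145 and 294 CPM in MCL lines, against 1.71, 7.28 and 42.1 CPM in GCB lines. JVM2, at 3.15 CPM, was the one MCL line inside the GCB range, and TOLEDO was the highest GCB line. TIMP2 rose by 3.90 (SE 0.54, adjusted p = 5.21e-05). SPRY2, a feedback inhibitor of receptor tyrosine kinase signalling, had 12.2 to 194 CPM in MCL lines (median 70.1) and 1.15 to 29.6 CPM in GCB lines (median 8.51), and rose by 3.12 (SE 0.47, adjusted p = 0.000201). The MCL lines REC1, JEKO1 and SP53 were inside the GCB range.

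Among genes of PI3K and B-cell receptor signalling, PRKCA, a widely expressed calcium-dependent protein kinase C isoform, was lower in MCL lines. PRKCA had 16.7 to 136 CPM in MCL lines (median 38.4) and 33.4 to 1490 CPM in GCB lines (median 273), and fell by 2.82 (SE 0.67, adjusted p = 0.0155). The call was lost without GRANTA519, JVM2 and FARAGE (change -2.65, adjusted p = 0.0934) and in limma-voom (change -2.41, adjusted p = 0.0702). It was the single called member among 28 tested genes of that list, whose median change was 0.17. In the same list PIK3CG, the catalytic subunit p110 gamma, had medians of 90.4 CPM in MCL and 308 CPM in GCB lines (change -2.30, adjusted p = 0.0506). PIK3CD, the lymphoid subunit p110 delta, had medians of 937 CPM in MCL and 561 CPM in GCB lines (change 1.06, adjusted p = 0.102).

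PTK2, the gene of focal adhesion kinase, had the smallest p among the genes that fell. It had 11.9, 40.4 and 56.1 CPM in the lowest, median and highest MCL line, against 32.5, 518 and 2030 CPM in GCB lines. TOLEDO at 32.5 CPM and RCK8 at 49.8 CPM were the only GCB lines inside the MCL range. PTK2 fell by 4.00 (SE 0.64, adjusted p = 0.000311).

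TSPAN13, a tetraspanin membrane protein, had the most negative change of the called genes. It had 3.79, 5.91 and 142 CPM in MCL lines, against 1.59, 421 and 2470 CPM in GCB lines, and fell by 4.49 (SE 1.05, adjusted p = 0.0142). REC1, SP49 and SP53 formed the upper part of the MCL lines at 49.4 to 142 CPM, and RCK8 at 1.59 CPM was below every MCL line. The change was -5.19 without SP53. The call was lost without GRANTA519, JVM2 and FARAGE (change -4.25, adjusted p = 0.068) and in limma-voom (change -4.01, adjusted p = 0.128).

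PFKFB4, a kinase that raises the glycolytic activator fructose 2,6-bisphosphate, had 10.6 to 160 CPM in MCL lines (median 37.3) and 13.8 to 1370 CPM in GCB lines (median 316). It fell by 2.56 (SE 0.57, adjusted p = 0.0102), with FARAGE the lowest GCB line. The growth factor PDGFD fell by 2.25 (SE 0.50, adjusted p = 0.00965), with 12.4 to 28.9 CPM in MCL lines and 10.7 to 469 CPM in GCB lines, and only OCILY19 and OCILY8 among GCB lines were under the highest MCL line. COL4A3, a basement membrane collagen chain, fell by 2.40 (SE 0.59, adjusted p = 0.0226), with 14.1 to 47.6 CPM in MCL and 15.1 to 615 CPM in GCB lines. Without GRANTA519, JVM2 and FARAGE neither PDGFD (adjusted p = 0.0575) nor COL4A3 (adjusted p = 0.068) was called. In limma-voom PDGFD had a change of -1.77 (adjusted p = 0.0541) and COL4A3 of -1.66 (adjusted p = 0.177), and on the authors' log2 values COL4A3 had -1.74 (adjusted p = 0.104).

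**Figure D4:**
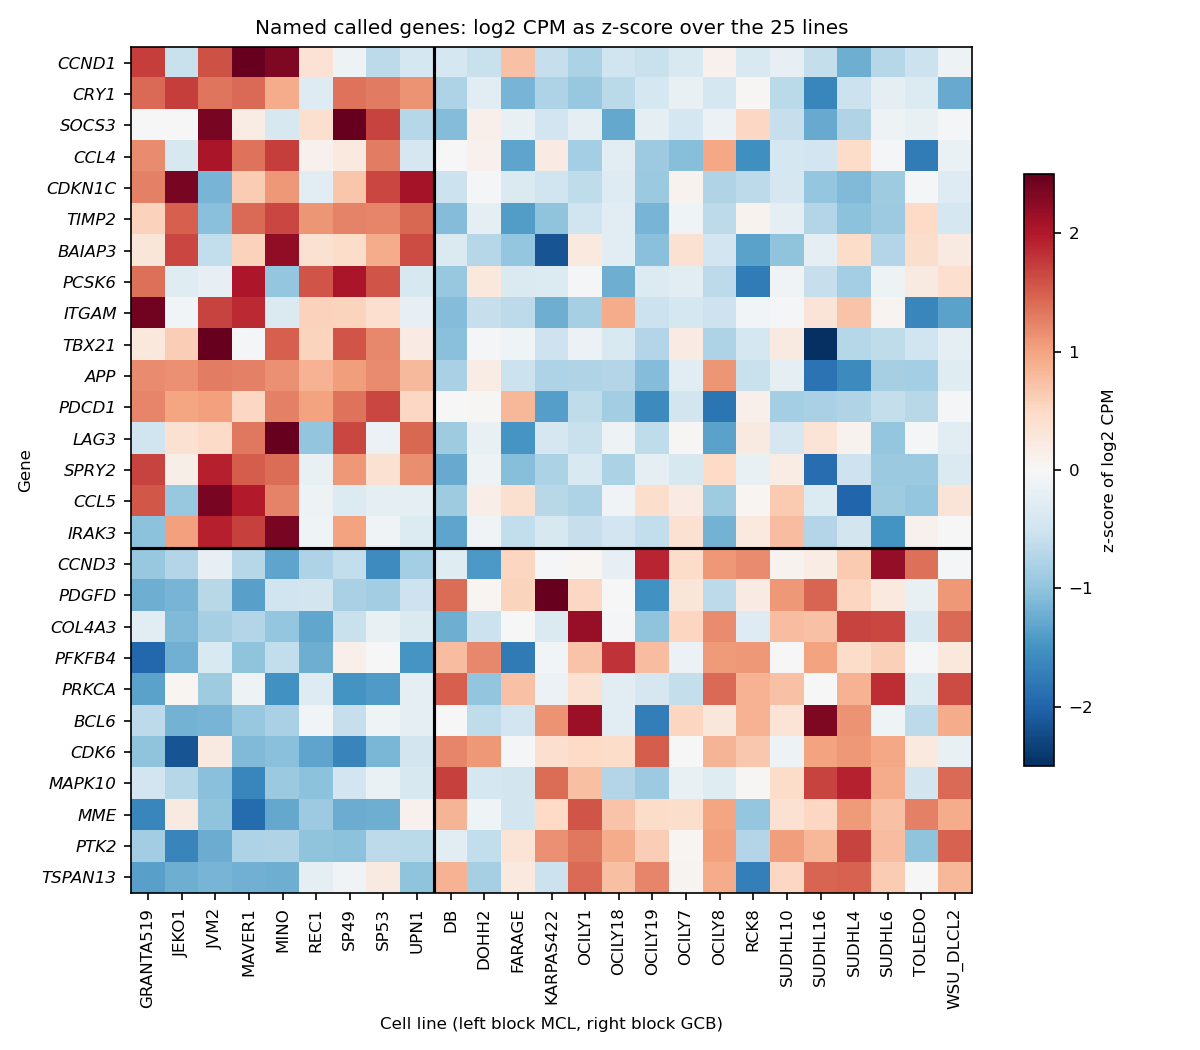
Level of 27 called genes (rows) in each of the 25 lines (columns, MCL block at the left, GCB block at the right), as the z-score of log2 CPM over the 25 lines. APP and PDCD1 are high in all 9 MCL lines, whereas CCND1, SOCS3 and ITGAM are high in some of them, and RCK8 is low for TSPAN13, PTK2 and MME among the GCB lines.

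Immune checkpoint genes contributed 2 higher genes. Of 14 tested genes for checkpoint and costimulatory receptors and ligands, PDCD1 and LAG3 rose, none fell and 12 were not called, with a median of 0.15. PDCD1 (chr2:241849881-241858908, minus strand) encodes PD-1, an inhibitory receptor best known on activated T cells. It had 30.8, 70.7 and 212 CPM in the lowest, median and highest MCL line, against 0.451, 4.12 and 51.2 CPM in GCB lines. Only FARAGE, at 51.2 CPM, was a GCB line above the lowest MCL lines MAVER1 and UPN1, and the next GCB line, RCK8, had 15.7 CPM. PDCD1 rose by 3.37 (SE 0.58, adjusted p = 0.000802). LAG3, another inhibitory receptor of T cells, had 3.74, 23.0 and 465 CPM in MCL lines, against 2.00, 8.41 and 19.5 CPM in GCB lines. It rose by 3.22 (SE 0.59, adjusted p = 0.00125) and by 1.96 without MINO, the line at 465 CPM (adjusted p = 0.0361). The LAG3 call was lost in limma-voom (change 2.01, adjusted p = 0.0989) and on the authors' log2 values (change 1.99, adjusted p = 0.0938).

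Because PDCD1 and LAG3 are best known from T cells, the markers of T and NK cells were read beside them. None of 9 tested markers was called, 7 had negative changes, and their summed level was 59.8 to 632 CPM in MCL lines (median 203) and 32.4 to 747 CPM in GCB lines (median 249). The list median was -0.62. The perforin gene PRF1, used by killer cells, was 1 of the 2 markers with a positive change. PRF1 had medians of 49.3 CPM in MCL and 21.2 CPM in GCB lines (change 1.72, adjusted p = 0.0757). No marker of the list was at 0 in all lines. Each library came from an established B-cell culture, so these are levels of marker genes in that culture. They give no count of T or NK cells. The part of these markers in the PDCD1 and LAG3 results was not tested. In bulk RNA, fewer cells with a transcript and less of it per cell cannot be told apart.

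The promoter of PDCD1 is shown because it was the one promoter of the genes chosen for the size and stability of their change that held a searched motif upstream of the start in both annotations used. Promoter sequences (250 bases before to 50 after the start, RefSeq, GRCh38.p14) were at hand for 15 of the higher and 7 of the lower genes, and 4 motifs were searched on both strands. The E-box CACGTG, the site type bound by MYC and by the circadian factors CLOCK and BMAL1, was in 11.1% of 1191 promoters and in those of PDCD1, IRAK3 and EML4 among the higher genes. The octamer ATGCAAAT, bound by OCT factors, was in 1.68% of promoters and in that of TSPAN13. The core TTCNNNGAA, shared by BCL6 and STAT sites, was in 6.8% and in that of the lower gene ABCC5, and the NF-kB motif was in 2.1% and in none of those promoters. EML4 and ABCC5 are named here for their match, after their values were seen. A match describes these letters and not a bound site. The 236 bases before the start of PDCD1 (chr2:241858909-241859144, minus strand, 5′ to 3′) are given with the E-box in capitals.
PDCD1: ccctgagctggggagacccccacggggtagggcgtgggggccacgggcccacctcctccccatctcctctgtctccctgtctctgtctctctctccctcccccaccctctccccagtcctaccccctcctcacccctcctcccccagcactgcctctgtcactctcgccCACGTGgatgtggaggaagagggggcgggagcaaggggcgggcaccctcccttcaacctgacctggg

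Among NF-kB subunits, regulators and targets, 2 of 31 tested genes rose (the chemokines CCL4 and CCL5), none fell, and the median was 0.43. CCL4, which draws T cells and macrophages and is secreted by B cells after receptor stimulation, had 15.1, 675 and 4920 CPM in the lowest, median and highest MCL line, against 0.519, 18.3 and 393 CPM in GCB lines. JVM2, MINO, MAVER1, SP53 and GRANTA519 were above every GCB line, and the other 4 MCL lines were within the GCB range. CCL4 rose by 4.46 (SE 0.97, adjusted p = 0.00912), by 3.65 without JVM2 and by 5.32 without OCILY8. Without GRANTA519, JVM2 and FARAGE, the lines with Epstein-Barr virus, its change was 3.55 (adjusted p = 0.068).

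CCL5 had 7.43, 24.9 and 967 CPM in MCL lines, against 1.49, 22.1 and 79.4 CPM in GCB lines, so the medians were close and JVM2, MAVER1, GRANTA519 and MINO alone were above every GCB line. Its change of 3.05 (SE 0.69, adjusted p = 0.0107) was 2.32 without JVM2 (adjusted p = 0.0687). The CCL5 call was also lost under upper-quartile scaling, under scaling by library size alone, in both limma fits and both without GRANTA519, JVM2 and FARAGE and without JVM2, RCK8 and FARAGE, with changes down to 1.73 and adjusted p up to 0.323. CCL3, the neighbour of CCL4 and a related chemokine, had medians of 31.8 CPM in MCL and 21.4 CPM in GCB lines (change 1.03, adjusted p = 0.363). Chemokine genes of this cluster have near-identical copies, which could share reads. Among the regulators, the inhibitor gene NFKBIE had medians of 1000 CPM in MCL and 305 CPM in GCB lines (change 1.38, adjusted p = 0.107), and the subunit gene NFKB1 had 483 and 412 CPM in MCL and GCB lines (change 0.84, adjusted p = 0.191).

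SOCS3, a feedback inhibitor of JAK-STAT signalling, was the called member among 20 tested genes of that pathway. SP49 had 518 CPM, JVM2 221 CPM and SP53 74.3 CPM, while the other 6 MCL lines had 1.46 to 9.66 CPM and the GCB lines 0.494 to 11.5 CPM. Its change of 4.79 (SE 0.80, adjusted p = 0.000481) therefore rests on these 3 lines, and SOCS3 fell under the filter without JVM2, SP49, SP53 or RCK8. In limma its change was 2.58 with voom weights (adjusted p = 0.128) and 2.56 on the authors' log2 values (adjusted p = 0.104). IRAK3, an inhibitor of toll-like receptor signalling, rose by 2.09 (SE 0.46, adjusted p = 0.00983), alone among 17 tested genes of that pathway. It had 15.1, 111 and 420 CPM in MCL lines and 9.51, 26.2 and 87.6 CPM in GCB lines, and without MINO its change was 1.48 (adjusted p = 0.135). IRAK3 also lost its call under upper-quartile scaling, under scaling by library size alone and in both limma fits, with changes of 1.48 to 1.67 and adjusted p of 0.113 to 0.143.

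TBX21, the factor T-bet that also marks a subset of B cells, had 9.34, 22.7 and 300 CPM in MCL lines, against 0.128, 5.09 and 13.1 CPM in GCB lines. Of the MCL lines, 7 were above every GCB line, with JVM2 highest and MAVER1 and UPN1 within the GCB range. TBX21 rose by 3.45 (SE 0.55, adjusted p = 0.000308) and by 2.59 without JVM2. CXCR3, the chemokine receptor known as a target of T-bet in T cells, had medians of 28.7 CPM in MCL and 0.617 CPM in GCB lines and was not called (change 3.41, adjusted p = 0.122). In MAVER1 it was listed at 0, while SP49 had 166, JVM2 155 and SP53 128 CPM, and the GCB line RCK8 had 66.8 CPM.

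BAIAP3, a protein of dense-core vesicle traffic, rose by 3.61 (SE 0.70, adjusted p = 0.00255), with 4.47, 34.5 and 537 CPM in MCL lines and 0.174, 6.33 and 28.3 CPM in GCB lines. Without MINO its change was 2.77. PCSK6, a secreted proprotein convertase, rose by 3.54 (SE 0.64, adjusted p = 0.00111). SP49, MAVER1, REC1, SP53 and GRANTA519 had 51.8 to 142 CPM, while JVM2, JEKO1, UPN1 and MINO had 1.43 to 4.73 CPM, inside the GCB range of 0.318 to 12.3 CPM. The PCSK6 call was lost in limma-voom (change 2.53, adjusted p = 0.093) and on the authors' log2 values (adjusted p = 0.0898).

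ITGAM, the integrin chain CD11b of myeloid cells, was the 1 called gene among 8 tested myeloid markers, of which 7 had negative changes. Its high lines were JVM2 at 35.8, MAVER1 at 46.5 and GRANTA519 at 112 CPM, of which JVM2 and GRANTA519 are known to carry Epstein-Barr virus. The other 6 MCL lines had 1.16 to 5.84 CPM, against 0 to 10.5 CPM in GCB lines. The ITGAM change was 3.50 (SE 0.80, adjusted p = 0.0125). Its call was lost, or the gene fell under the filter, without GRANTA519, JVM2, MAVER1 or OCILY18. The ITGAM call was also lost with the log2 TMM factor as a covariate (change 2.90, adjusted p = 0.059) and in both limma fits (adjusted p up to 0.0703). The summed level of the myeloid markers was 245 to 482 CPM in MCL lines (median 343) and 144 to 1040 CPM in GCB lines (median 375). Stromal and endothelial markers summed to 251 to 839 CPM in MCL and 57.7 to 847 CPM in GCB lines, and epithelial markers to 576 to 1200 CPM in MCL and 514 to 2100 CPM in GCB lines, with no called member in either list and none at 0 in all lines.

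Several pathways that bear on these lymphomas held no called gene. Of 21 tested genes of mitosis and proliferation, 20 had positive changes, with a median of 0.20. Over all genes tested, 895 of 2325 had positive changes, with a median of -0.19. MKI67, the proliferation antigen stained in diagnosis of MCL, had medians of 969 CPM in MCL and 550 CPM in GCB lines (change 0.85, adjusted p = 0.264). Of 25 tested genes of DNA damage response and p53, ATM, a kinase often mutated in MCL, had medians of 287 CPM in MCL and 627 CPM in GCB lines (change -1.06, adjusted p = 0.155). In the BCL2 family (17 tested), BCL2 itself ran from 42.7 to 4500 CPM in MCL lines and from 16.4 to 8760 CPM in GCB lines (change -0.91, adjusted p = 0.532). Of 25 chromatin modifiers, TET2, which oxidises methylcytosine, had medians of 587 CPM in MCL and 228 CPM in GCB lines (change 1.25, adjusted p = 0.0842). LFNG, a glycosyltransferase that tunes NOTCH receptors, had 171 and 11.1 CPM in MCL and GCB lines (change 2.53, adjusted p = 0.0757). None of 17 tested MYC-related genes or 38 WNT genes was called.

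Homing, antigen presentation and interferon genes were also uncalled. S1PR1, the receptor that lets lymphocytes leave lymphoid organs, had medians of 51.3 CPM in MCL and 8.25 CPM in GCB lines (change 1.98, adjusted p = 0.143). HLA-B, a class I antigen presentation gene with near-identical relatives, had 7650 and 1830 CPM in MCL and GCB lines (change 1.35, adjusted p = 0.314). The interferon-induced antiviral gene MX1 had 274 and 53.1 CPM in MCL and GCB lines (change 1.70, adjusted p = 0.399). Over all 26 lists, 400 distinct genes were tested and 15 called, beside 45 of 2325 (1.94%) over all genes tested. Whether any list held more calls than that share was not tested.

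**Figure D5:**
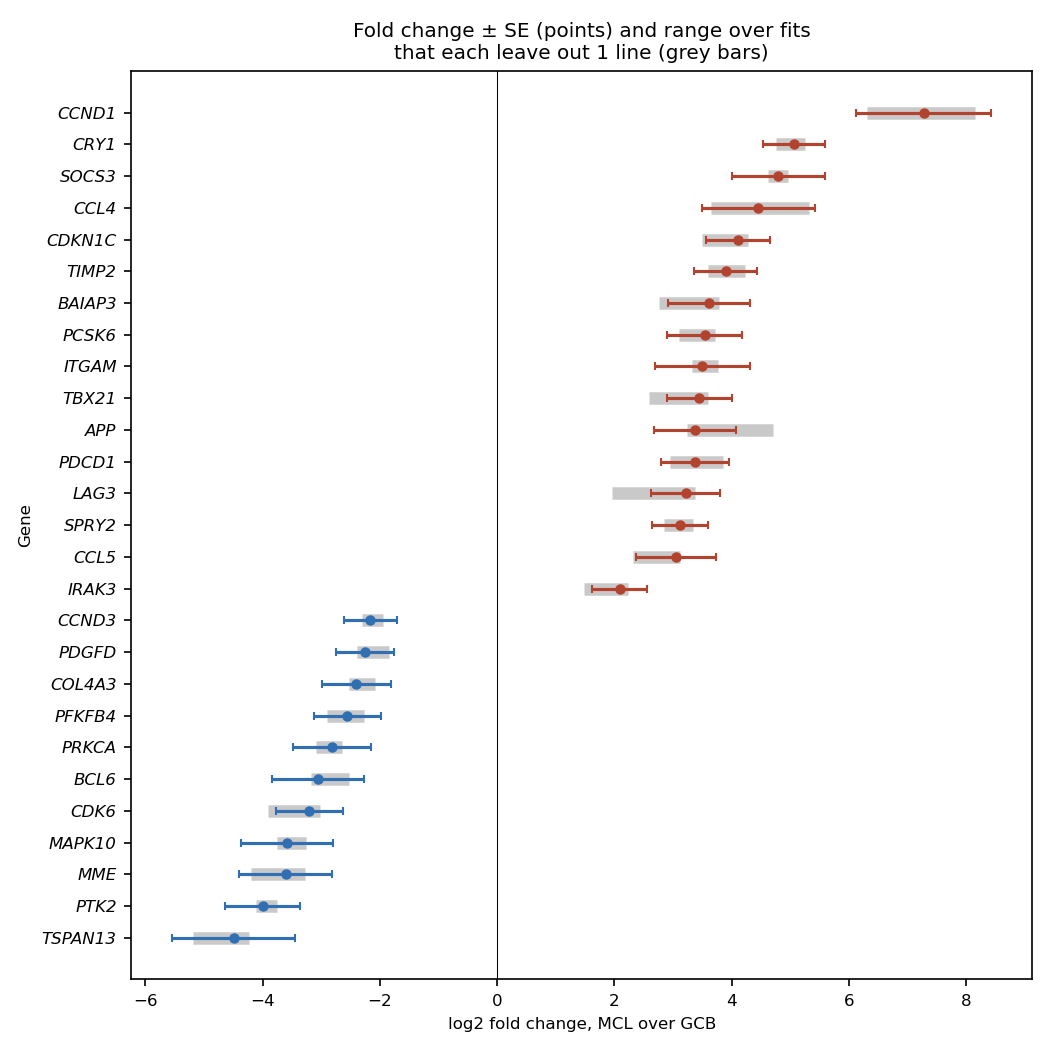
Log2 fold change, MCL over GCB, of 27 called genes, with points for the fit to 25 lines, coloured bars for ± SE and grey bars for the range over fits that each leave out 1 line. The range of CRY1 is narrow (4.75 to 5.25), whereas LAG3 reaches 1.96 and APP 4.70.

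The MCL lines differed in how many of these genes they carried at a high level. This count describes the lines and is no test, since the genes were chosen on this contrast. Of the 31 genes higher in MCL lines, MAVER1 and MINO had 23 each above the highest GCB line, GRANTA519, JEKO1 and JVM2 20 each, SP53 16, SP49 13, UPN1 8 and REC1 7. By the looser measure of the GCB median, the 9 MCL lines had 26 to 30 of the 31 higher genes above it and each had all 14 lower genes below it. By the stricter measure the lower genes varied too, since 8 MCL lines were below every GCB line for CDK6, 6 for MME and 3 for PTK2, but 0 for TSPAN13, PDGFD and BCL6. Among GCB lines, DOHH2 and OCILY7 were above the GCB median for 26 of the 31 higher genes, WSU_DLCL2 for 25 and SUDHL10 for 21. These 4 lines had TMM factors of 1.35 to 1.81, above the GCB median of 1.02, and the part of the scaling factor in that pattern was not tested. With the log2 TMM factor as a covariate the counts were 49 higher and 21 lower, and 44 of the 45 called genes remained.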

How the data were processed

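RNA of 36 lymphoma cell lines was measured by targeted RNA-Seq, 1 library per line, sequenced on an Illumina NextSeq per the labels. The authors deposited raw counts per target, as whole numbers with no scaling, and log2 values, which match, to within 0.00532, counts scaled by a library factor, raised by 1 and put on the log2 scale. The genome build was hg38 per the submitters' processing notes, and no aligner, counting method or strand setting is given in the sources used here. Without strand, reads of overlapping or antisense genes cannot be told apart.

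Of 2559 targets, 10 named ER and a number were treated as control probes and left out (median 0.000186% and at most 0.00293% of a library's counts). The 9 MCL and 16 GCB lines were fitted in edgeR 4.0.16 (R 4.3.3) with TMM factors and the two-sided robust quasi-likelihood test. Genes needed at least 10 CPM in at least 4 lines, and p-values were Benjamini-Hochberg adjusted over 2325 genes, with a threshold of 0.05. The script was tested on simulated counts. Library totals ran from 6960169 to 13451527 counts. Totals and TMM factors together make 3 counts worth 0.152 to 0.451 CPM. Differences in library measures were tested by exact permutation of 2042975 assignments. Alternatives used DESeq2 1.42.0, limma 3.58.1, other scalings, filters, covariates and lines left out. The other 11 lines entered no fit.

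Named genes were the 12 largest changes per direction that kept call and sign in every fit without 1 line (22 met this), the 5 smallest p per direction, called members of 26 lists, and CCND1 and BCL6. This gave 28 called genes, of which 1 is not reported here. Of the list members without a call, 30 are named. The members, the lists and the choice of these were made with earlier results of these data known. Coordinates are from GENCODE 29 on GRCh38 and promoters from RefSeq on GRCh38.p14.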

Additional observations from a re-analysis of the deposited data

Results flagged for a closer look

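In 2 of 26 measures tested within the 9 MCL lines, 1 line stood apart from the rest by a gap that was more than 0.493 of the group's whole range, the 95% critical value for 9 lines. Chance gives such a gap in about 1 in 20 groups. For CRY1, REC1 had 3.52 CPM, and its gap to the next MCL line was 0.607 of the range of log2 CPM. For TIMP2, JVM2 had 3.15 CPM, and the gap was 0.598 of the range. Both genes kept their call without the line in question. Keeping it in every fit without 1 line was a condition of the naming rule on fold changes that both met, so this adds no separate check.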

How the results depend on the processing

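Genes higher and lower in MCL lines numbered 31 and 14, or 45 in all. With the log2 TMM factor as a covariate they were 49 and 21 (70). The DESeq2 Wald test gave 59 and 74 (133), a share of 44.4% higher against 68.9%. Limma-voom gave 33 and 7, sharing 24 genes with the 45, and upper-quartile scaling 29 and 21, or 58% higher. Without GRANTA519, JVM2 and FARAGE, 20 and 7 genes (27) were called, sharing 24 with the 45. Without JVM2, RCK8 and FARAGE they were 38 and 22, sharing 37. Leaving out each line in turn gave 25 to 42 higher and 11 to 21 lower genes (38 to 63 in all). Of the 28 called genes that met the naming rule none changed sign in any setting. The setting with the most lost calls was limma-voom with 13, namely CCND1, PCSK6, LAG3, TSPAN13, MAPK10, PRKCA, COL4A3, PDGFD, BCL6, SOCS3, IRAK3, CCL5 and ITGAM. Without GRANTA519, JVM2 and FARAGE 7 lost theirs (CCL4, TSPAN13, PRKCA, COL4A3, PDGFD, BCL6 and CCL5). Only 26 of the 28 genes passed the filter in that setting, and 19 kept their call. The cause was not tested. Of 30 uncalled genes named, 9 passed in some setting other than the DESeq2 Wald test and the fits without 1 line.

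The differences in library measures were within the spread between lines and had no stable sign. The log2 total difference was -0.024 for medians (exact permutation p = 0.68) and -0.013 to 0.054 without 1 line. The TMM factor difference was 0.018 for medians (exact permutation p = 0.981) and -0.101 to 0.005 without 1 line. No paired analysis was made, because nothing in the labels links an MCL line to a GCB line. Each line is 1 library, so differences between cultures of a line could not be measured, and depth limits genes near the 3-count floor.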

Other observations

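Values of the called genes in the 11 lines that belong to neither class, scaled together with all 36 lines, were read against the medians of both classes. They form no class of their own, and no test was made. CRY1 ran from 1.59 to 113 CPM with a median of 4.01 CPM, below the MCL median of 83.9 CPM and near the GCB median of 2.25 CPM. HBL1 at 113, VL51 at 67.2 and HAIR_M at 48.9 CPM were the high lines for CRY1, and HBL1 at 2370, VL51 at 2290 and HAIR_M at 895 CPM were also the high lines for APP, whose median over the 11 lines was 66.9 CPM. PDCD1 reached 441 CPM in HBL1 and was above the GCB median of 3.99 CPM in all 11 lines. CCND1 was highest in VL51 at 270 CPM.

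The lower genes had another pattern. CDK6 had 61.2 to 938 CPM in the 11 lines (median 236) and PFKFB4 55.5 to 492 CPM (median 171), and for both genes all 11 lines were above the MCL medians of 34.7 and 41.6 CPM. TSPAN13 had a median of 37.1 CPM and MME of 94.5 CPM, between the MCL medians of 6.00 and 35.6 CPM and the GCB medians of 445 and 1130 CPM. SSK41 had 523 CPM of TSPAN13 and 1760 CPM of MME, the highest of the 11 lines for both.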
